A study of Mus musculus with 13 samples.

Results

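Interferon-stimulated and antigen presentation genes were followed in mouse retinal cells that were made to express Ikzf1, which encodes the zinc finger transcription factor Ikaros. The set holds 44 genes out of 35734 in the authors' deposited table, matched by gene name. All 44 were found, and all 44 passed the filter on low counts, as did 15657 genes in the whole series. The genes were listed with the fold changes of these same libraries in view, so their changes between the groups are given here as a description and not as a test.

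The RNA-seq arm compared 4 control libraries with 4 Ikzf1 libraries, all from CD1 mouse retinas of postnatal day 0. Retinas were dissociated, the cells were transfected with a GFP construct (control) or an Ikzf1-IRES-GFP construct, in which 1 transcript encodes both proteins, and they were kept in culture for 9 h before sorting for GFP. Transfection, culture and sorting were thus shared by both groups. A replicate held 400000 cells in the control group and 300000 in the Ikzf1 group. The labels call the replicates biological and do not give the promoter of the RNA-seq constructs or the number of animals behind a replicate. The labels name the cells retinal progenitors, and all 12 progenitor markers examined were detected in all 8 libraries.

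Interferons are secreted proteins that cells release on sensing viral nucleic acid. Type I interferons bind the receptor pair Ifnar1 and Ifnar2, whose kinases Jak1 and Tyk2 activate STAT factors such as Stat2; these join Irf9 to form the complex ISGF3, which binds the interferon-stimulated response element (ISRE) in the promoters of its target genes. The targets include nucleic acid sensors, the OAS enzymes, IFIT and Mx proteins, the ubiquitin-like modifier Isg15 with its ligases and its protease, chemokines, and the proteasome subunits, peptide transporters and class I molecules of antigen presentation. Many of these genes have a basal level without infection, in neural tissue as elsewhere.

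Levels are given as CPM (counts scaled to library size, with TMM, a method that corrects for differences in library composition). The libraries held 21.4 to 30.5 M read pairs, and mitochondrial transcripts took 2.18 to 2.95% of them. Ikzf1 stood at 84.4, 70.4, 66.7 and 75.7 CPM in control replicates 1 to 4 and at 170542, 182860, 187106 and 184027 CPM in Ikzf1 replicates 1 to 4. The groups did not overlap, and the misexpressed gene contradicted no label; reads from the construct count toward it. A gene is called changed here where the edgeR quasi-likelihood test, adjusted by Benjamini-Hochberg over all 15657 genes, was below a threshold of 0.05. By this rule 59.1% of all genes tested were called, 29.3% higher and 29.8% lower in the Ikzf1 libraries.

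The 44 genes did not move together. Of them, 11 were called higher, 19 lower and 14 were not called. The largest rises were those of Oasl1, Rsad2, Helz2 and Irf7, at log2 fold changes between 1.82 and 2.92, and the largest fall was that of Cxcl10, at -2.34. Called rises reaching a log2 fold change of 1 numbered 5, where 4.94% of all genes tested had one, and called falls reaching -1 numbered 8, where 6.39% had one. All 4 Ikzf1 libraries lay above all 4 controls for 11 genes and below them for 17, against 26.4% and 26.6% of all genes tested. The median log2 fold change of the 44 was -0.29 and that of all genes tested was 0.00, and the median absolute value was 0.59 against 0.29. Since the set was proposed from this contrast, nothing is read from these shares.

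**Figure D1:**
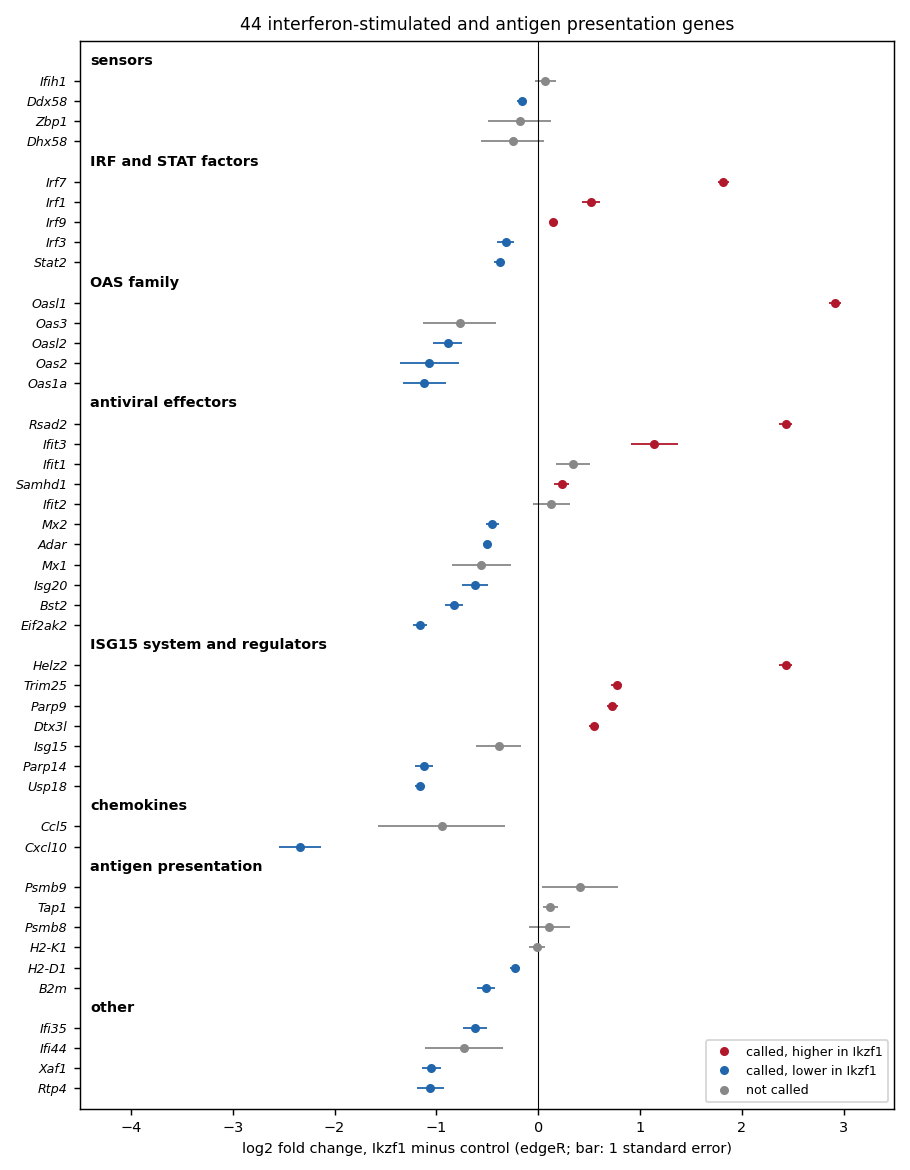
Log2 fold change (x axis, Ikzf1 minus control, edgeR) of the 44 genes (y axis), grouped by role; bars are 1 standard error, and red, blue and grey mark genes called higher, called lower and not called. Values run from 2.92 for Oasl1 to -2.34 for Cxcl10; both chemokines and the 4 genes under other lie below 0, and each of the other roles holds genes on both sides of 0.

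The summed level of the 44 genes was 1424 to 1473 CPM in the controls and 1760 to 1847 CPM in the Ikzf1 libraries, although more genes were called lower than higher. Without Rsad2, Helz2, Trim25 and Oasl1, the 4 genes with the largest gains in CPM, the other 40 summed to 1207 to 1235 CPM in the controls and 1061 to 1141 CPM in the Ikzf1 libraries. These 4 were picked by their gains in these same libraries, so a lower sum of the rest follows in part from the choice. The genes with the largest losses were not left out in the same way. The sum over all 44 genes was higher with Ikzf1, while 27 of the 44 had a log2 fold change below 0. Basal levels were compared per transcript length, in TPM (reads scaled by transcript length and then by their total), in the control libraries. The median control level was 17.2 TPM over the 44 genes and 19.7 TPM over all genes tested. It was 19.5 TPM for the 11 genes called higher, 39.5 TPM for the 19 called lower and 2.73 TPM for the 14 not called.

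Usp18 was the most abundant of the set per length, at 122 TPM and with all 4 controls between 116 and 124, clear of the next gene, Adar, at 83.6 to 101 TPM. The control ranges of Adar, B2m, H2-D1, Irf3 and Irf9, which followed, overlapped in the order given. Oas3 was the lowest, at 0.4 TPM, with a range of 0.254 to 0.602 that overlapped that of Ifi44 above it (0.496 to 1.43 TPM).

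The promoters of the set were examined for the ISRE, because ISGF3 and the IRF factors act through it. RefSeq promoters (build GRCm38.p6, 250 bases before to 50 after the start) were on hand for 34 of the 44 genes. The motif searched was GAAA, any 2 bases and GAAA, on either strand. It was found in 13 of 34 genes (38.2%, exact 95% binomial interval 22.2 to 56.4), against 3.99% of the 27025 genes in the promoter table and 3.58% of the 11654 tested genes with a promoter. A match was present in 2 of 10 genes called higher, 7 of 14 called lower and 4 of 10 not called. The motif was thus found in genes of all 3 kinds. The set was listed as interferon-stimulated genes, so a high share of ISRE matches follows in part from the listing and was not tested. For Oasl1, Helz2 and Irf7 the window held no match, which says only that these letters are not in this window. With a longer motif, the same letters followed by CT, the share was 17.6% (6 of 34), against 0.303% of all genes in the table.

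**Figure D2:**
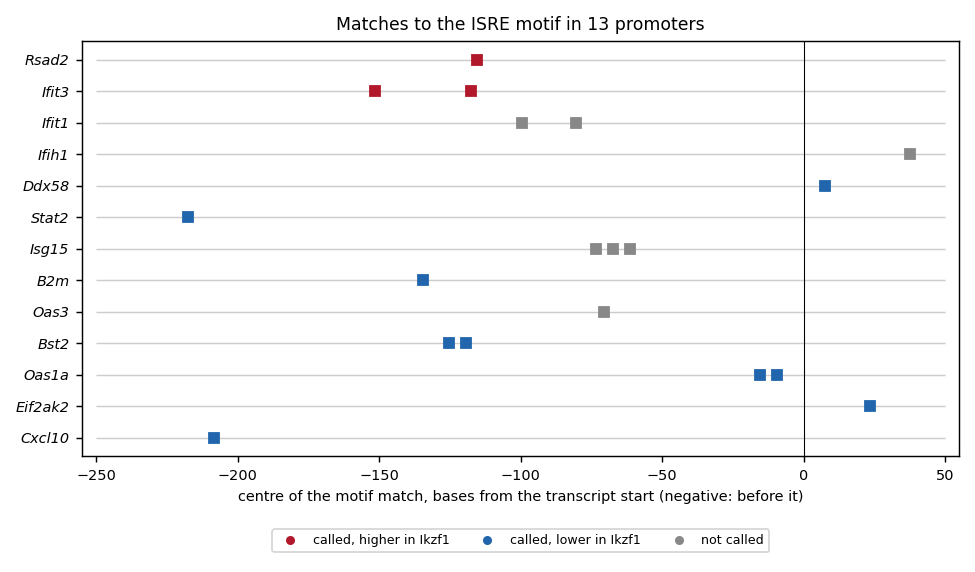
Position of each match to the ISRE motif (x axis, bases from the transcript start) in the 13 genes with a match (y axis, ordered by log2 fold change); red, blue and grey mark genes called higher, called lower and not called. Matches lay before the start in 10 genes and after it in Ifih1, Ddx58 and Eif2ak2.

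Stretches around the matches are printed for 2 genes that rose, 3 that fell and 1 that was not called, to show that the same motif stands before genes that moved in different directions. Capitals mark the bases of the match, read 5′ to 3′ on the strand of the gene, and a run in the TTTC orientation is the motif on the other strand.
Rsad2, chr12:26456533-26456602, minus strand: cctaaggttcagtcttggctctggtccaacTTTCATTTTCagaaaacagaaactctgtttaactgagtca
Ifit3, chr19:34583343-34583446, plus strand: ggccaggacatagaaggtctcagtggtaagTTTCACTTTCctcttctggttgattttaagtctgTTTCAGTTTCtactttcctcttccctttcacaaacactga
Cxcl10, chr5:92349063-92349132, minus strand: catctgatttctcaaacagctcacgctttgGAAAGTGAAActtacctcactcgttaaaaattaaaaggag
Bst2, chr8:71537557-71537632, minus strand: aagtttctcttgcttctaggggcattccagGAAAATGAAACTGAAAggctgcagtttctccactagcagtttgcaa
Oas1a, chr5:120907526-120907575, minus strand: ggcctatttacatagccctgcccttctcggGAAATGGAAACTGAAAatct
Isg15, chr4:156200845-156200926, minus strand: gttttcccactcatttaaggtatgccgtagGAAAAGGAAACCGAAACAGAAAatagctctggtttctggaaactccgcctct
Isg15 holds 3 overlapping matches and Bst2 and Oas1a 2 each. Ifit3 holds 2 separate matches in the TTTC orientation. The start of Oas1a lies only a few bases after its second match, at positions -14 to -5.

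Of the 4 sensors of viral RNA and DNA, only Ddx58 was called. Ddx58 encodes RIG-I, a cytoplasmic sensor of viral RNA, and had a log2 fold change of -0.16 ± 0.05 (SE; errors after a log2 fold change are standard errors throughout). It was called lower, while its libraries overlapped between the groups, at 77.5 to 86.1 CPM in the controls and 70.1 to 80.8 CPM in the Ikzf1 libraries, and an offset for transcript length ended the call (-0.20). Ifih1 (0.07 ± 0.10), which encodes the RNA sensor MDA5, was not called. Its relative Dhx58 (-0.25 ± 0.31) and the nucleic acid sensor Zbp1 (-0.18 ± 0.31) were not called either, at means of 1.27 and 1.42 CPM in the controls. In Dhx58 and Zbp1 the standard error was larger than the change, so its size was not resolved.

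All 5 transcription factors of the set were called, 3 higher and 2 lower. Irf7 encodes the factor that amplifies the transcription of type I interferon genes. It stood at 22, 24.9, 23 and 23 CPM in control replicates 1 to 4 and at 82.3, 82.8, 83.9 and 79.5 CPM in Ikzf1 replicates 1 to 4. Every Ikzf1 library had more than 3 times the level of every control, and the log2 fold change was 1.82 ± 0.05. Irf7 overlaps Phrf1 on the other strand, and whether counting used strand was not given, so reads of the 2 genes may not be fully separated. Irf1 (0.52 ± 0.09) rose from 10.9 to 15.6 CPM in the group means.

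The 2 DNA-binding partners of ISGF3 in the set moved apart. Irf9 stood at 103, 99.8, 106 and 102 CPM in the controls and at 113, 114, 113 and 117 CPM in the Ikzf1 libraries. The groups did not overlap, but the rise was small, at 0.15 ± 0.04. Stat2 stood at 60.4, 53.3, 57.8 and 57.4 CPM in the controls and at 43.6, 42.7, 44.3 and 45.2 CPM in the Ikzf1 libraries, all of them lower than any control (-0.38 ± 0.05). Irf3, the factor that carries the first signal from the sensors, was called lower (-0.32 ± 0.08) with overlapping libraries: Ikzf1 replicate 2, at 46.3 CPM, lay inside the control range of 44 to 51.8 CPM. Irf9 lies over Rnf31 on the same strand and Irf3 over Bcl2l12 on the opposite one.

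The OAS family was divided between 1 strong rise and several falls. Oasl1 (ENSMUSG00000041827, GRCm38 chromosome 5, 114923240 to 114937915, plus strand) encodes an OAS-like protein without synthetase activity that in mice restrains the translation of Irf7 mRNA. It stood at 10, 9.97, 8.99 and 9.47 CPM in the controls and at 71, 73.3, 74.6 and 72.1 CPM in the Ikzf1 libraries. The 4 Ikzf1 values lay close together, with an SD of 1.58 CPM, and the log2 fold change of 2.92 ± 0.06 was the largest of the 44. Oasl2, the neighbouring gene, starts at 114896936 and ends 11.0 kb before Oasl1 on the same strand. It changed in the other direction (-0.89 ± 0.14), with means of 46.7 ± 3.14 CPM (control) and 25.2 ± 5.36 CPM (Ikzf1; SD over 4 libraries).

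The OAS enzymes proper, which make the messenger that activates RNase L, were lower or not called. Oas1a stood at 2.81, 2.35, 3.12 and 3.42 CPM in the controls and at 1.65, 1.36, 1.15 and 1.23 CPM in the Ikzf1 libraries, with no overlap (-1.12 ± 0.21). Oas2 stood at 1.9, 1.61, 1.63 and 1.97 CPM in the controls and at 0.592, 0.831, 0.557 and 1.37 CPM in the Ikzf1 libraries (-1.07 ± 0.29), where replicate 4 came near the controls. Oas3 (-0.77 ± 0.36) was not called, on 8 to 26 reads a library. The 3 genes lie on chromosome 5, and Oas1a has close copies among which reads may be split.

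**Figure D3:**
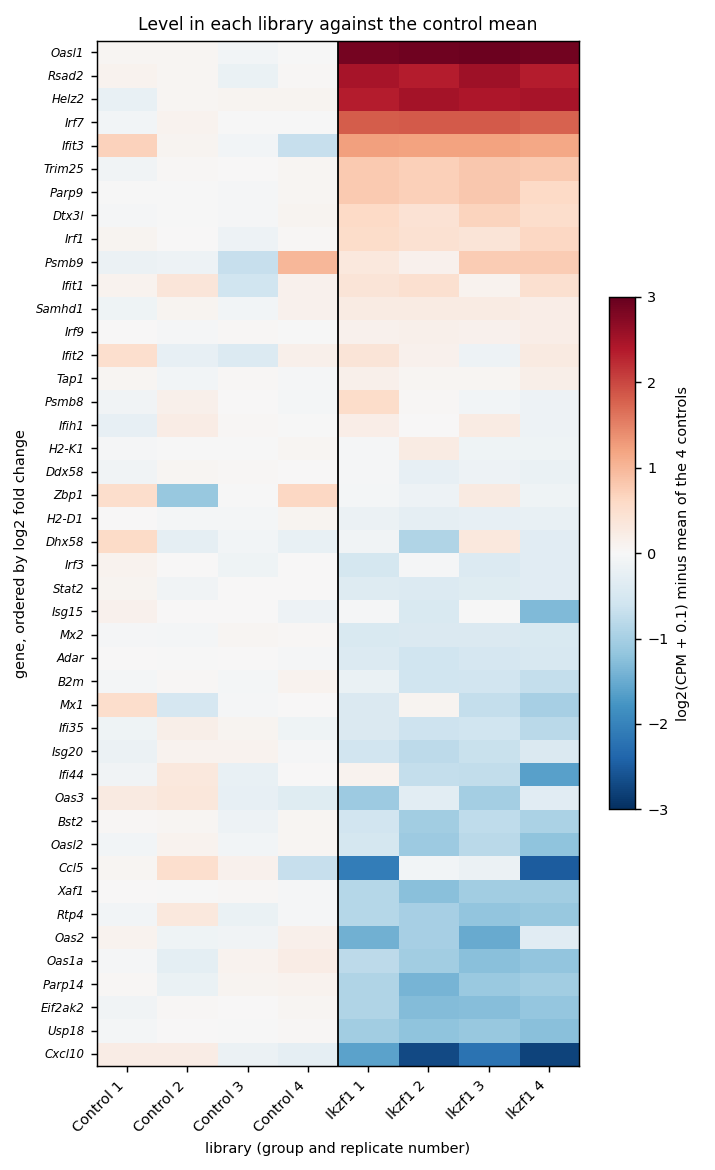
Level of each of the 44 genes (y axis, ordered by log2 fold change) in the 8 libraries (x axis), as log2(CPM + 0.1) minus the mean of the 4 controls; red is above and blue below that mean. Oasl1, Rsad2, Helz2 and Irf7 are high in all 4 Ikzf1 libraries, and the blue rows at the bottom are often palest in Ikzf1 replicate 1.

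Of the 11 antiviral effectors, 3 were called higher, 5 lower and 3 were not called. Rsad2 encodes viperin, an enzyme that makes a chain-terminating nucleotide. It stood at 39.1, 38, 31.7 and 37.1 CPM in the controls and at 201, 187, 212 and 188 CPM in the Ikzf1 libraries. All Ikzf1 libraries were far above all controls (2.43 ± 0.06). Ifit3, of the IFIT family of antiviral proteins that bind RNA or each other, varied among the controls, at 6.52, 4.18, 3.73 and 2.42 CPM, and was even among the Ikzf1 libraries, at 9.43, 9.36, 9.27 and 8.95 CPM. The groups did not overlap, and the log2 fold change was 1.14 ± 0.23. The other IFIT genes of the set, Ifit2 (0.13 ± 0.18), 7.1 kb before Ifit3, and Ifit1 (0.34 ± 0.17), 52.1 kb after it, were not called. Ifit1 passed the threshold without control replicate 2 (0.47) or without Ikzf1 replicate 3 (0.43). Ifit3b, a near-identical copy outside the set that lies between Ifit3 and Ifit1, was called higher (0.73 ± 0.16). Reads of Ifit3 may be shared with Ifit3b. Samhd1, which depletes deoxynucleotides, rose slightly (0.23 ± 0.07), a call that was lost with an offset for transcript length (0.17).

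The effectors that fell included the kinase that halts translation on double-stranded RNA. This gene, Eif2ak2 (PKR), stood at 65.4, 71.4, 71 and 73.2 CPM in the controls and at 37.3, 28.6, 28.7 and 31.1 CPM in the Ikzf1 libraries. The Ikzf1 libraries were all lower, with replicate 1 the highest of them, and the log2 fold change was -1.16 ± 0.07. Adar, which edits double-stranded RNA and thereby shields it from the sensors, had 196 to 203 CPM in the controls and 132 to 150 CPM with Ikzf1 (-0.50 ± 0.04). Bst2 (-0.83 ± 0.09), which tethers budding virions, and Isg20 (-0.62 ± 0.13), an RNA exonuclease, also fell without overlap. Mx2 fell by 0.45 ± 0.06, with all Ikzf1 libraries at 24.3 to 24.7 CPM and all controls at 32.1 to 34.6 CPM. Mx1 (-0.56 ± 0.29) was not called, at 0.775 to 2.41 CPM over the 8 libraries, but it was without Ikzf1 replicate 2 (-0.81). The authors' deposited table types Mx1 and Mx2 as polymorphic pseudogenes.

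The ISG15 system and its partner regulators were split as well. Isg15, the modifier, stood at 4.35, 4.05, 3.99 and 3.6 CPM in the controls and at 3.89, 2.89, 3.94 and 1.52 CPM in the Ikzf1 libraries. The groups overlapped and the gene was not called (-0.39 ± 0.22), although it was without Ikzf1 replicate 3 (-0.54). Usp18, the protease that removes Isg15 from proteins and also blocks signalling at Ifnar2, stood at 94, 99, 97.3 and 99.5 CPM in the controls and at 47.4, 42, 44 and 40.5 CPM in the Ikzf1 libraries, well apart (-1.16 ± 0.05). Trim25, a ubiquitin and Isg15 ligase that activates RIG-I, stood at 135, 150, 147 and 153 CPM in the controls and at 251, 239, 258 and 253 CPM in the Ikzf1 libraries. It rose in every library (0.77 ± 0.05).

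Helz2 encodes a helicase and nuclear receptor coactivator. It stood at 30.4, 37, 37.8 and 37.8 CPM in the controls and at 184, 200, 192 and 199 CPM in the Ikzf1 libraries. Control replicate 1 was the lowest, and all Ikzf1 libraries were far above the controls (2.43 ± 0.06).

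Parp9, Dtx3l and Parp14 encode ADP-ribosyltransferases and a ubiquitin ligase of the interferon response, and they lie next to each other on chromosome 16. Parp9 stood at 63.8, 64.5, 62.8 and 67.4 CPM in the controls and at 112, 106, 113 and 98.5 CPM in the Ikzf1 libraries (0.73 ± 0.05). Dtx3l, whose start overlaps that of Parp9 on the other strand, stood at 56, 57, 55.6 and 60.5 CPM in the controls and at 86.2, 77.2, 90.3 and 82.3 CPM in the Ikzf1 libraries (0.55 ± 0.05). Both rose with no overlap between the groups, and reads from the stretch that the 2 genes share may be assigned to either. Parp14, 54966 bases away on the strand of Dtx3l, stood at 23.9, 20.3, 24.8 and 25 CPM in the controls and at 12.4, 8.83, 10.8 and 11.3 CPM in the Ikzf1 libraries. It thus changed against its neighbours, at -1.12 ± 0.09.

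**Figure D4:**
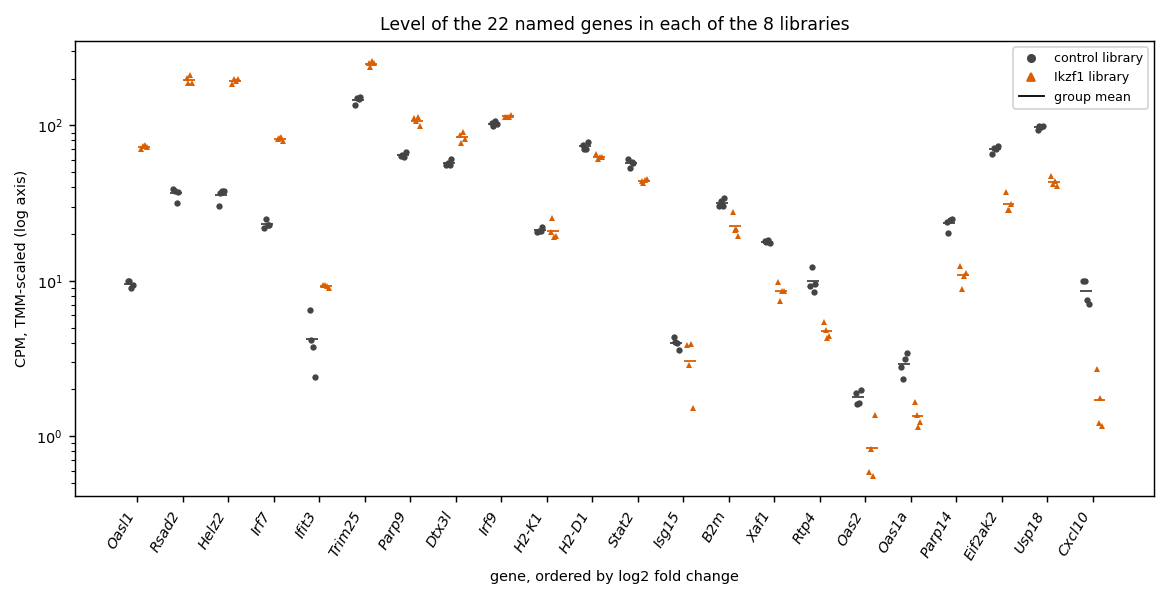
Level (y axis, TMM-scaled CPM, log axis) of the 22 genes given library by library (x axis, ordered by log2 fold change), with circles for the 4 controls, triangles for the 4 Ikzf1 libraries and a line at each group mean. The groups are separated for 20 of them and overlap for H2-K1 and Isg15.

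Both chemokines of the set had low CPM. Per length, their control means were 17.4 TPM (Cxcl10) and 13.1 TPM (Ccl5), beside a median of 17.2 TPM for the 44. Cxcl10, which attracts T cells, stood at 10, 9.93, 7.5 and 7.05 CPM in the controls and at 2.71, 1.22, 1.75 and 1.16 CPM in the Ikzf1 libraries. Every Ikzf1 library was below every control, on 28 to 64 reads against 204 to 253, and the log2 fold change was -2.34 ± 0.21. Ccl5 (-0.95 ± 0.62) varied too much within the Ikzf1 group to be called, from 0.352 CPM in replicate 4 to 2.32 CPM in replicate 2.

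No antigen presentation gene of the set was called higher. B2m, the light chain shared by all class I molecules, stood at 30.4, 32.4, 30.5 and 34.1 CPM in the controls and at 27.9, 21.1, 21.5 and 19.5 CPM in the Ikzf1 libraries. All 4 were lower, replicate 1 the least so (-0.51 ± 0.09). H2-D1, a class I heavy chain, stood at 74.6, 70.8, 70.5 and 78 CPM in the controls and at 65.3, 61.1, 62.3 and 62.5 CPM in the Ikzf1 libraries. It fell by a small amount without overlap (-0.23 ± 0.05).

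H2-K1, the other class I heavy chain of the set, stood at 20.5, 20.9, 20.9 and 22.1 CPM in the controls and at 20.6, 25.2, 19.2 and 19.3 CPM in the Ikzf1 libraries. Ikzf1 replicate 2 was the highest of all 8 and the other 3 lay around the controls, for a log2 fold change of -0.01 ± 0.08. Class I genes are alike in sequence, so the split of reads between them is uncertain. The immunoproteasome subunits Psmb8 (0.11 ± 0.20) and Psmb9 (0.41 ± 0.37) and the peptide transporter subunit Tap1 (0.12 ± 0.07), which lie side by side in the major histocompatibility complex on chromosome 17, were not called. Without control replicate 4, Psmb9 was called, at 0.97. In the authors' deposited table Tap1 had a log2 fold change of 0.34 and an adjusted p of 0.00505.

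Of the 4 remaining genes, 3 fell. Xaf1, a promoter of apoptosis, stood at 18, 17.8, 18.2 and 17.5 CPM in the controls and at 9.81, 7.43, 8.59 and 8.6 CPM in the Ikzf1 libraries (-1.05 ± 0.09). Rtp4, a receptor transporter protein, stood at 9.33, 12.2, 8.52 and 9.61 CPM in the controls and at 5.41, 4.85, 4.3 and 4.44 CPM in the Ikzf1 libraries (-1.06 ± 0.13). In both genes the groups did not overlap and replicate 1 was the highest Ikzf1 library. Ifi35 fell by 0.62 ± 0.12 on the log2 scale, and Ifi44 (-0.73 ± 0.38) was not called, on 6 to 25 reads a library, except without Ikzf1 replicate 1 (-1.16).

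The Ikzf1 libraries were not alike across the set. Replicate 1 was the highest Ikzf1 library for 14 of the 19 genes called lower (73.7%), against 31.3% of the 4668 genes called lower in the whole table. It was the highest for 1 of the 11 called higher, where replicate 3 was the highest for 7. Over the 4584 genes called higher in the whole table, replicate 1 was the highest for 21.4% and replicate 3 for 24.6%. Replicate 1 also had the lowest Ikzf1 level of the 4 and replicate 3 the highest, and the part of that level in the order was not tested. The lowest Ikzf1 library was replicate 1 for 6 of the 44 genes, replicate 2 for 16, replicate 3 for 7 and replicate 4 for 15. Over all genes tested the shares for replicates 1 to 4 were 27.2, 24.4, 23.2 and 25.2%. Without replicate 1, 11 of the 44 genes were called higher and 20 lower. Over all 44 genes, each Ikzf1 library was the highest of its group for 6 to 18 genes, and each control was the highest of its group for 6 to 15. Over all genes tested, an Ikzf1 library was the highest of its group for 23.2 to 25.9% and a control for 21.0 to 29.7%. The median coefficient of variation of the 44 was 7.94% among controls and 11.7% among Ikzf1 libraries, and that of all genes tested was 6.75% and 7.43%.

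Transcripts of 1 gene can differ in share as well as in sum. The share of each transcript in the TPM of its gene was also compared between the groups. The transcripts given here were singled out after their values were seen, and others whose ranges lay apart are left out. An example is H2-D1 (ENSMUST00000172503.2, 40.7 to 41.4% in the controls against 32.5 to 38.5%). How often ranges lie apart over the transcripts of all genes was not counted. In Samhd1, transcript ENSMUST00000139263.7, of 2036 bases, made up 5.96 to 10.4% of the gene in the controls and 20.8 to 26.5% in the Ikzf1 libraries. The ranges also lay apart in Xaf1 (ENSMUST00000094041.3, 14.8 to 29.3% in the controls against 35.1 to 57.6%), in H2-K1 (ENSMUST00000025181.17, 0 to 9.38% against 15.8 to 30.7%) and in Irf7 (ENSMUST00000127161.1, 0% against 5.26 to 9.02%). The share was lower with Ikzf1 in Irf9 (ENSMUST00000134863.7, 9.6 to 16.8% against 5.79 to 8.68%). The ranges nearly touched in Irf3 (ENSMUST00000107834.1, 9.42 to 15.1% against 15.4 to 23.6%) and in Mx1 (ENSMUST00000113768.7, 0 to 12.3% against 13.1 to 67%). They overlapped in Adar, where transcript ENSMUST00000107405.5 made up 31.9 to 45.5% in the controls and 30.3 to 39.6% in the Ikzf1 libraries. These shares are estimates by the authors' quantification and were not tested.

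Other genes of the interferon and antigen presentation pathways were taken from 4 lists of 146 symbols, of which 114 were tested. Of these, 33 rose and 53 fell, with a median log2 fold change of -0.25. Among all genes tested 29.3% were called higher and 29.8% lower, which is also the background for the counts of each of the 4 lists. The named genes are from the 4 largest called changes in each direction of each list, with adjusted p-values from edgeR.

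In the list of ligands, receptors and signalling genes, 8 of 21 rose and 8 fell, and the median was -0.05. Among IRF family genes, Irf5 (1.43 ± 0.15, edgeR adjusted p 5.63e-09) and Irf8 (1.19 ± 0.22) rose from low levels of 2.6 and 1.31 CPM in the control means. Irf2, which can repress ISRE-driven transcription, fell from 37.9 to 42.2 CPM in the controls to 13 to 15.7 CPM in the Ikzf1 libraries (-1.53 ± 0.07, edgeR adjusted p 1.08e-16).

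The receptor subunit Ifnar1 rose by little (0.11 ± 0.04, edgeR adjusted p 0.0272), the type II receptor subunit Ifngr1 rose more (0.63 ± 0.07), and Ifnar2 (-0.18 ± 0.09, edgeR adjusted p 0.0952) did not pass the test. Ifnar1 lost its call without control replicate 2 (0.12), control replicate 3 (0.09) or Ikzf1 replicate 3 (0.11) and with an offset for transcript length (0.12), and Ifnar2 gained one without Ikzf1 replicate 3 (-0.24). The feedback inhibitors Socs1 (-0.86 ± 0.12) and Ptpn6 (-0.92 ± 0.31), the latter encoding a phosphatase, fell. Ptpn6 was not called without Ikzf1 replicate 3 (-0.75) or with an offset for transcript length (-0.39). Ifnb1 was the only listed interferon gene with enough reads to test. It had 35, 47, 27 and 5 reads in the controls and 3, 11, 5 and 3 reads in the Ikzf1 libraries, and control replicate 4 lay inside the range of the Ikzf1 libraries. It was called lower (-2.32 ± 0.66, edgeR adjusted p 0.00877), and at -2.94 without Ikzf1 replicate 2. Its log2 fold change was -1.22 in the authors' deposited table. Ifng, Ifnk, Ifnl3 and Ifna4 were listed at 0 in the authors' deposited table. In bulk RNA, fewer expressing cells and less RNA per cell cannot be told apart.

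Of 23 sensors and adaptors outside the 44 genes, 8 rose and 10 fell (median -0.26). Rnf125, whose ligase marks RIG-I for degradation, rose from 0.0692 to 0.305 CPM in the controls to 1.1 to 2.11 CPM (2.89 ± 0.40, edgeR adjusted p 4e-07). Tbkbp1 (0.77 ± 0.07) and Azi2 (0.44 ± 0.05), adaptors of the kinase Tbk1, and Rnaseh2b (0.76 ± 0.09), a subunit of RNase H2, also rose. The DNA-binding PYHIN family genes Ifi203 (-1.57 ± 0.12) and Ifi204 (-0.81 ± 0.31), the kinase gene Ikbke (-1.48 ± 0.30) and Ticam1 (-0.98 ± 0.09), which encodes the adaptor TRIF, fell. The call of Ifi204 was lost without control replicate 2 (-0.80) or 4 (-0.61), without Ikzf1 replicate 2 (-0.77) or 4 (-0.68), and with the length offset (-0.59), which also ended that of Ikbke (-0.80).

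Of 48 other interferon-stimulated genes, 10 rose and 28 fell, and the median was -0.43. Trim14 (1.97 ± 0.22), an adaptor at mitochondria, Tent5a (1.03 ± 0.06), a poly(A) polymerase, Ifit3b (0.73 ± 0.16) and Ddx60 (0.72 ± 0.08), a helicase, rose the most. The largest falls were those of the monocyte attractant Ccl2 (-3.60 ± 0.56), which rests on 1 or 2 reads in each Ikzf1 library against 13 to 35 in the controls, Apol9a (-2.29 ± 0.26), Oas1g (-1.88 ± 0.45) and Apol9b (-1.83 ± 0.27). Oas1g had 15 to 32 reads in the controls and 3, 4, 14 and 3 in Ikzf1 replicates 1 to 4. Without Ikzf1 replicate 3, Oas1g stood at -2.70. Apol9a and Apol9b are near-identical, so their reads may be split. The genes of membrane proteins that block viral entry were named after their values were seen. They are Ifitm1 (-1.82 ± 0.51), Ifitm2 (-0.90 ± 0.19) and Ifitm3 (-1.08 ± 0.20), and all 3 fell. Ifitm1 rests on 2, 1, 3 and 11 reads in Ikzf1 replicates 1 to 4 against 10 to 20 in the controls. Its log2 fold change was -0.91 in the authors' deposited table.

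Of 22 other antigen presentation genes, 7 rose, 7 fell and 8 were not called (median -0.08), and none changed by 1 or more on the log2 scale. Tapbpl (0.83 ± 0.15), an editor of class I peptides, Erap1 (0.61 ± 0.07), which trims them, and Rfxap (0.51 ± 0.07), a factor for class II transcription, rose. H2-Ke6 (0.38 ± 0.08) also rose, but it encodes a dehydrogenase and shares only its location with the presentation genes. Psmb10 (-0.54 ± 0.13), H2-Q4 (-0.50 ± 0.11), Psme1 (-0.48 ± 0.07) and Nlrc5 (-0.40 ± 0.10, edgeR adjusted p 0.000848), the transactivator of class I genes, fell. With the length offset Erap1 (0.17) and Nlrc5 (-0.13) were not called. Tap2, the partner of Tap1, was just past the threshold (0.27 ± 0.11, edgeR adjusted p 0.0403) and was not past it under 9 of the 14 alternative settings.

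**Figure D5:**
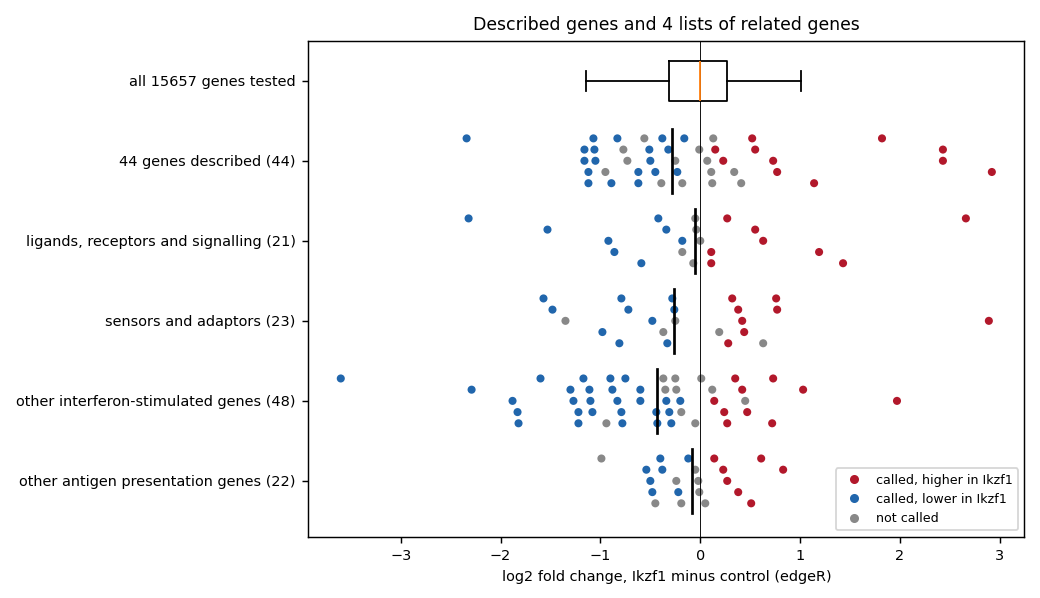
Log2 fold change (x axis, Ikzf1 minus control, edgeR) of the 44 genes and of the 4 lists of related genes (rows, number tested in brackets); each point is a gene coloured by its call, black bars are medians, and the box shows the quartiles and the 5th to 95th percentiles of all 15657 genes tested. The medians run from -0.05 to -0.43, and every row holds genes called in both directions.

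Markers of other cell types stood as follows. The microglia and macrophage list (12 of 14 genes measured) summed to 6.09 to 7.71 CPM in the controls and 5.97 to 7.65 CPM in the Ikzf1 libraries, and Aif1 and P2ry12 had means of 2.82 and 4.45 normalised counts in the authors' deposited table. The lymphocyte list (3 of 9 measured) summed to 1.49 to 2.18 and 0.972 to 1.34 CPM, and Cd3e, Nkg7 and Gzmb were listed at 0 in the authors' deposited table. The endothelial list (8 of 10 measured) summed to 511 to 581 CPM in the controls and 229 to 273 CPM in the Ikzf1 libraries. Nearly all of that was Kdr and Flt1, without which it summed to 10.8 to 11.1 and 9.31 to 12.9 CPM, and Cdh5 and Emcn had means of 1.78 and 0.537 normalised counts in the authors' deposited table. The pericyte list (4 of 5 measured) summed to 2.45 to 3.26 and 1.59 to 1.86 CPM, and the astrocyte list (3 of 4 measured) to 5.05 to 6.09 and 3.85 to 4.69 CPM. The progenitor list summed to 1664 to 1870 CPM in the controls and 1354 to 1402 CPM in the Ikzf1 libraries, where 7 of its 12 genes fell and 1 rose. The microglial sum overlapped between the groups, and the other 5 sums were lower with Ikzf1 without overlap. For the endothelial list this held only with Kdr and Flt1 included, and none of the 3 lymphocyte genes measured was called. In the microglial list, 1 of 7 tested genes was called lower, Tmem119 (-1.05 ± 0.42), on 6 or 7 reads in each Ikzf1 library. Besides Kdr and Flt1, Tek (endothelium), Cspg4 (pericyte) and Pax2 (astrocyte) were also called lower. Outside the progenitor list no tested marker was called higher. The part of these cell types in the 17 genes whose Ikzf1 libraries all lay below the controls was not tested.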

How the data were processed

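The authors quantified the RNA-seq libraries with Salmon and compared the groups with DESeq2, per the labels; neither version is given in the sources used here. The deposited files held estimated counts and TPM per transcript, per the file headers. The authors' deposited table of the comparison held normalised counts as the mean signal of a gene, log2 fold changes, a Wald score and p-values. Its coordinates matched mm10 (GRCm38), a build in the submitters' processing notes. Whether counting used strand is not given in the sources used here. Peak lists were not used here.

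The files did not pair transcripts with genes, so runs of neighbouring transcripts were matched to the mean signal of each gene in the authors' table, without its fold changes. At a minimum mean of 5, 16810 of 16815 genes were joined. On simulated data 99.6% of genes were joined and 100.0% of these were right; with means moved slightly, 0.416% still found a match. Igtp, at a mean of 354 in the authors' deposited table, was not joined.

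Estimated counts were summed to genes, rounded, filtered with filterByExpr and scaled by TMM. The groups were compared with the two-sided quasi-likelihood test of edgeR 4.0.16 (R 4.3.3), with no covariate and Benjamini-Hochberg adjustment. The same test was also run on simulated counts with few, large changes and the same variability setting for every gene. There edgeR recovered 99.0% of 197 changed genes among 15505, and 5.8% of its 207 calls were false. Recovery of smaller changes, and false calls where most genes change, were not simulated. DESeq2 1.42.0 was an alternative.

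The 44 genes and all lists were chosen with earlier results of these data known. Each of the 44 is named; values per library are given for the 8 largest called changes in each direction and for Irf7, Irf9, Stat2, Isg15, B2m, H2-K1 and H2-D1. Of each related list, the 4 largest called changes in each direction are named, plus Ifnar1, Ifnar2, Ifnb1, Tap2 and Nlrc5; a few genes that these rules name are not reported here. Intervals cover counting error only.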

Additional observations from a re-analysis of the deposited data

Results flagged for a closer look

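In 160 groups of 4 libraries (each of the 44 genes and of the other named genes, in each group), 7 had 1 library far from the other 3, by Dixon's 95% critical value for the gap to the nearest library over the range. Chance flags about 1 in 20 groups, and over all genes tested 5.23% of groups met the same rule.

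Among the 44 genes, Bst2 had its lowest control value in replicate 3 (17.6 CPM, the others 20.1 to 20.4). Samhd1 had its lowest Ikzf1 value in replicate 4 (28.3 CPM, the others 29.5 to 29.6). Helz2 had its lowest control value in replicate 1 (30.4 CPM, the others 37 to 37.8). Each of these libraries stayed on its group's side of the other group.

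Among the other named genes, Irf2 was lowest in control replicate 1, at 37.9 CPM against 41.7 to 42.2, and Oas1g was highest in Ikzf1 replicate 3, at 0.557 CPM against 0.106 to 0.175. Psmb10 was highest in Ikzf1 replicate 1, at 6.38 CPM against 4.73 to 4.98. Ifnar1 had its lowest Ikzf1 value in replicate 2 (121 CPM, the others 129 to 130).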

How the results depend on the processing

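The counts of called genes stayed within 1.5 times under every setting tried. Over 8 leave-one-out fits, 8654 to 9059 genes were called, 11 to 12 of the 44 higher and 19 to 20 lower, with a median log2 fold change of -0.37 to -0.21; of the related genes 28 to 32 rose and 50 to 55 fell. DESeq2, RLE scaling, leaving out Ikzf1 counts and no filter on low counts each gave 11 higher and 19 lower. An offset for transcript length gave 7882 genes called, 11 of the 44 higher and 18 lower.

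On the log2(TPM + 0.1) scale the median of the 44 was -0.57, beside a shift of -0.22 in the median of all genes tested; Ikzf1 itself stood at 180317 TPM in the Ikzf1 libraries. The stricter ISRE motif gave 17.6%, and bases before the start alone gave 29.4%.

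Deviations from the group means showed no shared effect of the replicate number. Their correlations lay between -0.05 and 0.05, for same-numbered libraries and for the other pairs. Whether same-numbered libraries were prepared together cannot be read from this. With a replicate block 8926 genes were called, 11 of the 44 higher and 20 lower; Ccl5 was then called (-1.16), and Ifi204 and Tap2 were not.

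Of the 44 genes, 30 kept direction and call under all settings. Genes near 0 changed sign without passing the threshold. With the length offset Ifih1 was at -0.03, Zbp1 at 0.26 and Psmb8 at -0.13. Leaving out 1 library moved Ifih1 to between -0.0011 and 0.15, Zbp1 to between -0.44 and 0.04, Ifit2 to between -0.0036 and 0.32, Psmb8 to between -0.07 and 0.2 and H2-K1 to between -0.10 and 0.04. With the length offset Ddx58 (-0.20) and Samhd1 (0.17) were no longer called and Tap1 (0.35) was. By the adjusted p of the authors' deposited table, 11 of the 44 were higher and 18 lower, 28 of them also called here. Few reads limit Oas3, Ifi44, Psmb9, Ccl5, Dhx58, Zbp1 and Mx1.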
